A study of Caenorhabditis elegans with 12 samples.

Results

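The microRNA genes *mir-71* and *mir-246* were followed through adult life in whole wild-type *Caenorhabditis elegans* worms. Every line of the count table whose precursor is *mir-71* or *mir-246* was taken, which gave 4 mature microRNAs, miR-71-5p, miR-71-3p, miR-246-5p and miR-246-3p, from 2 of the 223 precursors and 368 mature microRNAs in the table. Small RNA was sequenced from worms of the strain N2 at days 1, 7, 14 and 21 of adulthood, with 3 biological replicates at each age and 12 libraries in all. The worms had no mutation, transgene or treatment; they were synchronized from eggs, moved to fresh plates during the first part of adulthood to leave their progeny behind, and handpicked into TRIzol. Dead worms and worms whose eggs had hatched inside them were taken off the plates, so each older group holds survivors only.

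A microRNA is cut from a hairpin precursor whose 2 arms, called 5p and 3p, can each give a mature strand. One strand is usually kept in an Argonaute protein, where it guides repression of target mRNAs, and the strand from the other arm is mostly degraded. *mir-71* is conserved among invertebrates; worms that lack it are short-lived, and in neurons it promotes the long life of worms without a germline through the transcription factor DAF-16. Loss of *mir-246* was also reported to shorten life, and reporters driven by either promoter were related to how long an individual worm will live.

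The *mir-71* hairpin (WBGene00003299) lies on chromosome I at 9379927 to 9380020 of the WBcel235 genome, on the minus strand, in an intron of the protein-coding gene *ppfr-1*, which has the same orientation. The 5p arm spans 23 bases (9379983 to 9380005) and the 3p arm 21 bases (9379948 to 9379968). A non-coding RNA gene, F16A11.6, overlaps the hairpin on the opposite strand. Whether reads from it could enter the counts of *mir-71* was not tested. The *mir-246* hairpin (WBGene00003340) lies on chromosome IV at 10940134 to 10940230 on the plus strand and overlaps no other annotated gene. The closest protein-coding gene, *fic-1*, ends 199 bases before it. The *mir-246* 5p arm covers 10940152 to 10940174 and the 3p arm 10940194 to 10940214.

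Library totals ran from 5784056 to 16867232 counts among the day 1 libraries, while those of day 7 held between 7320594 and 7897687, those of day 14 between 6652468 and 7388727, and those of day 21 between 6042140 and 11348110. Levels are given as TMM-normalized CPM, that is, counts scaled to a common library total after a correction for the make-up of each library. Markers of muscle (miR-1-3p), the intestine (miR-60-3p), glia (miR-228-5p) and neurons (miR-124-3p and lsy-6) were all detected, from lsy-6 at 2.82 to 6.33 CPM and miR-60-3p at 68.6 to 545 CPM to miR-1-3p at 5792 to 13480 CPM. The miR-35 family, which marks the germline and embryos, took 2.34 ± 0.306% of the counts at day 1, 9.28 ± 1.05% on day 7, 20.9 ± 1.26% on day 14 and 20.9 ± 0.966% at day 21 (SD, n = 3). Its part in the changes of *mir-71* and *mir-246* was not tested. In whole worms, fewer cells of a type and less RNA in each cell cannot be told apart. Along the first principal component (77.9% of the variance), day 14 replicate 1 lay at 16.7, beside day 21 replicates 2 and 3 (16.4 and 16.0), and day 21 replicate 1 lay at 9.17, beside day 14 replicates 2 and 3 (9.03 and 9.58). The main results at days 14 and 21 are given with and without these libraries. Because they were chosen for lying with the other age, leaving them out widens the difference between days 14 and 21 by construction. It also narrows the spread within each of these ages.

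miR-71-5p was among the most abundant microRNAs at every age, and its level was lower at day 21 than at day 7. It took 8.36, 11.3 and 8.92% of the counts in the 3 day 1 libraries and 12.3, 13.5 and 12.6% at day 7, where it ranked first of all microRNAs in every library. It took 6.70, 8.50 and 6.11% at day 14, and 8.32, 6.75 and 3.71% at day 21. By this share, the day 7 libraries stood above the other 9, and day 21 replicate 3, where miR-71-5p ranked 12, stood lowest.

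After normalization the level of miR-71-5p was 62200, 127400 and 79316 CPM at day 1 and 126952, 121236 and 121456 CPM at day 7. It was 85256, 96709 and 59803 CPM at day 14 and 79929, 77097 and 35707 CPM at day 21. The day 7 libraries agreed closely and lay above every library of days 14 and 21, but day 1 replicate 2 lay as high as they did, so day 1 overlapped every later age. The mean level was 89638 ± 33804 CPM at day 1, 123215 ± 3239 on day 7, 80589 ± 18890 on day 14 and 64244 ± 24755 at day 21 (SD, n = 3).

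**Figure D1:**
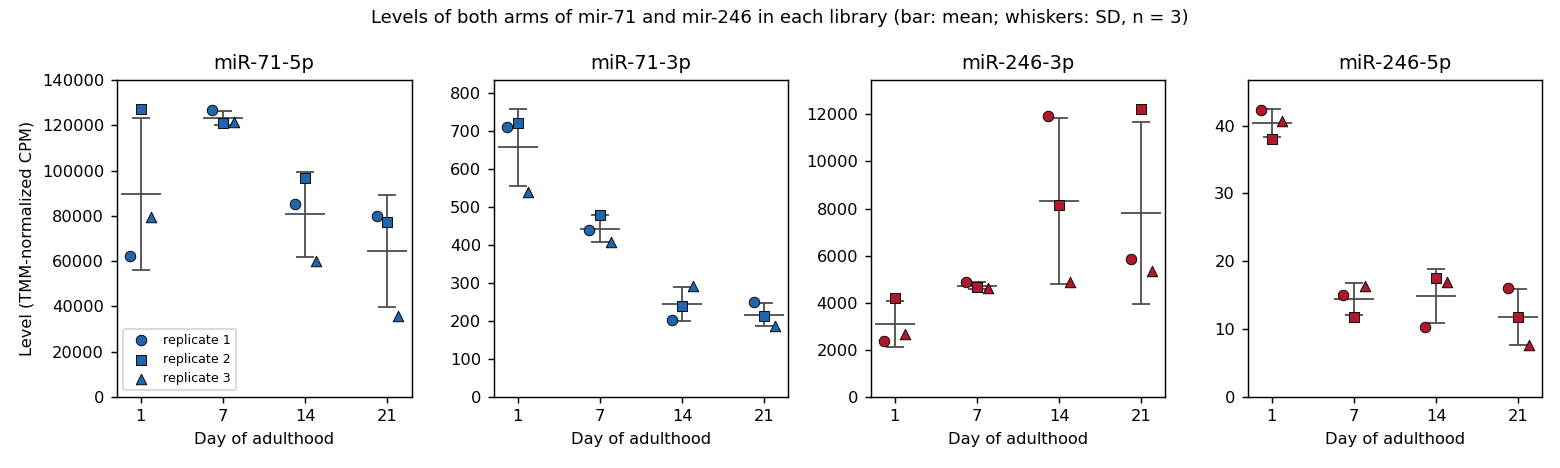
Levels of the 4 mature microRNAs in each library (y axis, TMM-normalized CPM, linear, starting at 0) by day of adulthood (x axis). Symbols are the 3 replicates, horizontal bars the means and whiskers the SD; miR-71-3p and miR-246-5p are highest at day 1, the miR-246-3p libraries of days 7, 14 and 21 all lie above those of day 1, and miR-71-5p is highest in mean at day 7 (123215 CPM).

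Differences between ages were tested in edgeR (quasi-likelihood, all 12 libraries fitted together). p-values were adjusted by Benjamini-Hochberg across the 245 microRNAs that had enough counts, and an adjusted p below 0.05 was called. All 4 mature microRNAs had enough counts. The level of miR-71-5p fell by 0.94 on the log2 scale from day 7 to day 21 (SE of 0.32, edgeR adjusted p = 0.0273), to 0.521 of the day 7 level. This call was lost without day 21 replicate 3 (log2 change of -0.67, edgeR adjusted p = 0.0636), and the change was -1.20 (adjusted p = 0.00621) without day 14 replicate 1 and day 21 replicate 1. In this comparison 24.9% of all tested microRNAs were lower and 27.3% higher, and the fall of miR-71-5p was the 49th in size of the 61 lower ones.

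The other differences of miR-71-5p did not pass the test. Its log2 difference from day 1 was 0.46 on day 7 (95% interval -0.23 to 1.15, edgeR adjusted p = 0.283; 0.15 without day 1 replicate 1), -0.15 on day 14 (-0.84 to 0.54, adjusted p = 0.674) and -0.48 at day 21 (-1.17 to 0.21, adjusted p = 0.191). The day 21 difference passed the test without day 1 replicate 1 (-0.78, edgeR adjusted p = 0.0358), without day 21 replicate 1 (-0.80, adjusted p = 0.0292), or without day 14 replicate 1 together with day 21 replicate 1 (-0.80, adjusted p = 0.0335). The day 14 difference turned to 0.03 without day 1 replicate 2, the high library of that age.

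Between days 7 and 14 the libraries of miR-71-5p did not overlap, but the log2 difference of -0.61 (95% interval -1.31 to 0.08) had an edgeR adjusted p of 0.136, and it was -0.60 without day 14 replicate 1 and day 21 replicate 1 (adjusted p = 0.159). Groups of 3 did not overlap for 62.9% of all tested microRNAs in this comparison (64.5% when day 21 was set against day 7). Over the 4 ages together miR-71-5p had an edgeR adjusted p of 0.0832, where 74.3% of tested microRNAs were called. Its trend was -0.034 per day on the log2 scale (edgeR adjusted p = 0.122). Scaled by total counts instead of TMM, miR-71-5p passed the test at day 21 against day 1 (-0.60, edgeR adjusted p = 0.0449), at day 14 against day 7 (-0.85, adjusted p = 0.0167) and over the 4 ages (adjusted p = 0.00756).

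miR-71-3p, the rarer strand of the same hairpin, fell with age. Its level was 711, 723 and 541 CPM at day 1, 440, 480 and 409 CPM on day 7, 202, 239 and 291 CPM on day 14, and 250, 212 and 188 CPM at day 21. Every day 1 library lay above every later one, and every day 7 library above every library of days 14 and 21. Days 14 and 21 overlapped. The means were 658 ± 102, 443 ± 35.1, 244 ± 44.7 and 217 ± 31.5 CPM (SD, n = 3), from 1075 to 11109 counts in a library.

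Against day 1, the log2 change of miR-71-3p was -0.57 on day 7 (SE of 0.21, edgeR adjusted p = 0.0476), -1.43 on day 14 (SE of 0.22, adjusted p = 5.24e-05) and -1.60 at day 21 (SE of 0.22, adjusted p = 1.86e-05). The share of tested microRNAs called lower against day 1 was 18.0% on day 7, 34.7% on day 14 and 35.9% at day 21. In size the falls of miR-71-3p came 43rd of 44, 51st of 85 and 53rd of 88 lower microRNAs. The libraries of those ages and day 1 did not overlap for 54.7, 69.8 and 73.5% of tested microRNAs. The fall by day 7 was near the threshold, and it was lost without day 1 replicate 1 (edgeR adjusted p = 0.0885), without day 7 replicate 1 (adjusted p = 0.147) and when day 7 replicate 3 was left out (adjusted p = 0.0957). It was also lost with RLE size factors, total counts, no filter, 10 counts in every library or a term for the replicate number. The edgeR adjusted p was then 0.0558 to 0.0715, with log2 changes of -0.57 to -0.67.

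From day 7, miR-71-3p fell by 0.86 on the log2 scale to day 14 (SE of 0.22, edgeR adjusted p = 0.00585) and by 1.03 to day 21 (SE of 0.22, adjusted p = 0.00149). Lower calls made up 17.1% of tested microRNAs at day 14 against day 7. The first of these calls was lost without day 7 replicate 2 (edgeR adjusted p = 0.0528) or without day 14 replicate 1 (adjusted p = 0.0626), and was kept with day 14 replicate 1 and day 21 replicate 1 both left out (-0.67, adjusted p = 0.0419). The falls on day 14 against day 1, at day 21 against day 1 and at day 21 against day 7 passed the test under all 20 alternatives run. The trend was -0.084 per day (edgeR adjusted p = 5.80e-05), beside 34.7% of tested microRNAs with a falling trend.

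miR-246-3p, the abundant strand of *mir-246*, rose with age. Its level was 2365, 4195 and 2680 CPM at day 1 and 4881, 4645 and 4617 CPM at day 7. It was 11952, 8140 and 4875 CPM at day 14 and 5851, 12248 and 5340 CPM at day 21. Every library of the later ages lay above all of day 1. Over all tested microRNAs, the libraries of days 7, 14 and 21 did not overlap day 1 for 54.7, 69.8 and 73.5%. The spread of miR-246-3p was widest at days 14 and 21, where the lowest library of day 14 lay among those of day 7. The lowest of day 21 lay just above those of day 7.

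The mean level of miR-246-3p was 3080 ± 979 CPM at day 1, 4714 ± 145 on day 7, 8323 ± 3542 on day 14 and 7813 ± 3849 at day 21 (SD, n = 3), from 21468 to 73232 counts in a library. Against day 1 its log2 change was 1.43 at day 14 (SE of 0.36, edgeR adjusted p = 0.00306) and 1.34 at day 21 (SE of 0.36, adjusted p = 0.00424), or 2.70 and 2.54 times the day 1 level. Both rises passed the test under all 20 alternatives run, the second at 0.86 without day 21 replicate 2, and without day 14 replicate 1 and day 21 replicate 1 they were 1.07 (edgeR adjusted p = 0.00682) and 1.38 (adjusted p = 0.00103). Higher calls made up 34.3% of tested microRNAs at day 14 and 35.1% at day 21, and in size these rises came 65th of 84 and 64th of 86.

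At day 7 the log2 difference of miR-246-3p from day 1 was 0.61 (95% interval -0.15 to 1.38, edgeR adjusted p = 0.191), where 21.2% of tested microRNAs were called higher. Against day 7 it was 0.82 at day 14 (0.05 to 1.59, edgeR adjusted p = 0.0777) and 0.73 at day 21 (-0.04 to 1.50, adjusted p = 0.0988). Higher calls made up 24.1% of tested microRNAs at day 14 against day 7. Without day 14 replicate 1 and day 21 replicate 1 the day 21 difference passed the test (0.83, edgeR adjusted p = 0.0302), and it also did without any of 5 single libraries (day 1 replicate 2, day 14 replicates 1 and 3, day 21 replicates 1 and 3), at adjusted p from 0.0414 to 0.0478. It was 0.35 without day 21 replicate 2 (edgeR adjusted p = 0.344). The day 14 difference was 0.51 without day 14 replicate 1 (edgeR adjusted p = 0.227) and 0.52 when day 21 replicate 1 was dropped as well (adjusted p = 0.191), and it passed without day 1 replicate 2, day 14 replicate 3 or any 1 library of day 21, at adjusted p from 0.0157 to 0.0453. In fits of only the 2 ages compared, both passed (edgeR adjusted p = 0.00835 and 0.0471). The trend of miR-246-3p was 0.073 per day on the log2 scale (edgeR adjusted p = 0.00550), beside 33.5% of tested microRNAs with a rising trend.

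miR-246-5p, the rare strand, was highest in young adults. It had 661, 195 and 773 counts at day 1, 110, 103 and 124 on day 7, 55, 114 and 115 on day 14, and 189, 70 and 48 at day 21. These gave levels of 42.3, 38.1 and 40.8 CPM at day 1, 15.1, 11.7 and 16.4 on day 7, 10.3, 17.5 and 16.9 on day 14, and 16.0, 11.7 and 7.64 at day 21. The 3 day 1 libraries stood together above all 9 later ones, which overlapped between ages. Such a lack of overlap with day 1, in either direction, held for 54.7% of tested microRNAs on day 7, 69.8% on day 14 and 73.5% at day 21.

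Against day 1, miR-246-5p fell by 1.49 in log2 units on day 7 (SE of 0.29, edgeR adjusted p = 9.14e-04), by 1.43 on day 14 (SE of 0.29, adjusted p = 6.65e-04) and by 1.77 at day 21 (SE of 0.30, adjusted p = 1.06e-04). These 3 falls passed the test under all 20 alternatives run. In size they came 18th of 44 lower microRNAs (18.0% of those tested), 50th of 85 (34.7%) and 46th of 88 (35.9%). After day 7 its log2 differences were 0.06 at day 14 (95% interval -0.57 to 0.69, edgeR adjusted p = 0.897) and -0.28 at day 21 (-0.91 to 0.36, adjusted p = 0.434). Leaving out day 21 replicate 1 took the latter to -0.61, leaving out day 21 replicate 3 took it to -0.046, and without day 14 replicate 1 and day 21 replicate 1 its edgeR adjusted p was 0.0507.

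**Figure D2:**
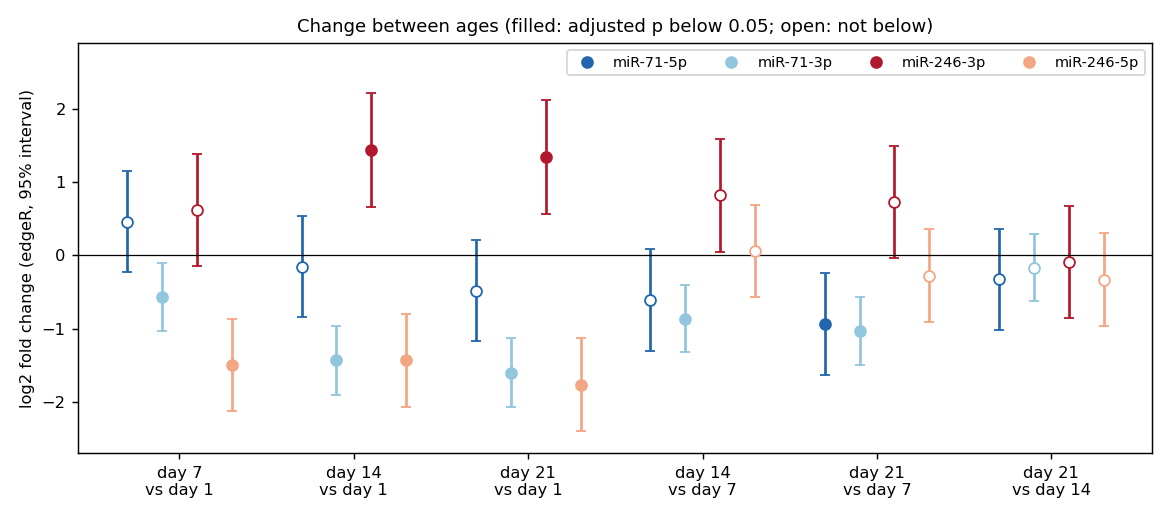
Log2 fold change of each mature microRNA in the 6 comparisons between ages (x axis), from the edgeR fit of 12 libraries (y axis, log2 units); bars are 95% intervals and filled points have an adjusted p below 0.05. miR-246-3p is the only 1 of the 4 with filled points above 0 (1.43 and 1.34), miR-71-5p has a single filled point (-0.94, day 21 against day 7), and day 21 against day 14 has none.

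No microRNA of the 245 passed the test between days 14 and 21 (0% called higher and 0% lower by edgeR). At an unadjusted p below 0.05 there were 12, and DESeq2 called 0. The log2 differences of the 4 mature microRNAs were -0.33 for miR-71-5p (95% interval -1.02 to 0.36), -0.17 for miR-71-3p (-0.63 to 0.29), -0.09 for miR-246-3p (-0.85 to 0.67) and -0.33 for miR-246-5p (-0.97 to 0.30). The libraries of these 2 ages did not overlap for 9.39% of tested microRNAs. With day 14 replicate 1 and day 21 replicate 1 both left out, 5 microRNAs were higher and 28 lower at day 21, a separation that the choice of these libraries favours and that is given as a description. The log2 differences were then -0.95 for miR-246-5p, -0.51 for miR-71-3p, -0.60 for miR-71-5p and 0.31 for miR-246-3p.

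The strands of each hairpin were then compared within a library, which needs no scaling between libraries. The ratio is given as log2 of the counts plus 0.5. It is a ratio of counts and not of molecules, since adapters join some small RNAs better than others.

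In *mir-246*, the 3p strand gained on the 5p strand with age. The log2 ratio was 5.80, 6.78 and 6.04 at day 1, 8.33, 8.62 and 8.13 on day 7, 10.2, 8.85 and 8.16 on day 14, and 8.51, 10.0 and 9.43 at day 21. All 9 later libraries lay above the 3 of day 1. In counts, 73.8 reads of miR-246-3p were found for each read of miR-246-5p at day 1 (geometric mean), 329 on day 7, 534 on day 14 and 640 at day 21.

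The *mir-246* ratio differed over the 4 ages (one-way F = 12.4, exact permutation p = 0.00662, adjusted p = 0.00994 over 9 tests of ratios). Its correlation with the day had Pearson's r = 0.82 (exact permutation p = 0.00108, adjusted 0.00325) and Spearman's rho = 0.80 (p = 0.00341, adjusted 0.00655) over 12 libraries. With any 2 of the 3 day 21 libraries left out, r was 0.755 to 0.882. Day 1 lay below all later libraries, which overlapped between ages. For this reason r and rho cannot tell a steady change from a step after day 1. Leaving out day 21 libraries does not test how far r rests on day 1. Each later age against day 1 had the smallest p that 3 against 3 allows, 0.1 (exact permutation, two-sided), with log2 changes of 2.16, 2.85 and 3.12. Without day 14 replicate 1 and day 21 replicate 1, F was 31.6 (exact permutation, adjusted p = 0.00143) and the changes at days 14 and 21 were 2.30 and 3.52. The choice of these libraries favours this F, since it narrows the spread within both ages.

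In *mir-71*, the ratio of the 5p to the 3p strand was lowest at day 1. The log2 ratio was 6.45, 7.46 and 7.20 at day 1, 8.17, 7.98 and 8.21 on day 7, 8.72, 8.66 and 7.68 on day 14, and 8.32, 8.50 and 7.57 at day 21. Day 1 lay below all 9 later libraries, and the 3 later ages overlapped, with replicate 3 the lowest of both day 14 and day 21. The geometric mean was 131 reads of miR-71-5p for each read of miR-71-3p at day 1, 279 on day 7, 327 on day 14 and 280 at day 21.

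The *mir-71* ratio differed over the ages (F = 4.83, exact permutation p = 0.0335, adjusted p = 0.0396 over the 9 tests), with r = 0.60 (exact permutation p = 0.0396) and rho = 0.63 (p = 0.0363), both 0.0396 after adjustment. With any 2 of the day 21 libraries left out, r was 0.516 to 0.757, which does not test how far r rests on day 1. Here too day 1 lay below all later libraries, so r and rho cannot tell a steady change from a step after day 1. The adjusted p (exact permutation) of F was above 0.05 when any 1 of 10 of the 12 libraries was left out, up to 0.146 without day 1 replicate 1, and that of r when any 1 of 9 was. F passed the test without day 14 replicate 3 (8.25, adjusted p = 0.0101, exact permutation) or day 21 replicate 3, and r without either of these (up to 0.736, adjusted p = 0.0104, exact permutation, without day 21 replicate 3) or day 7 replicate 3. Without day 14 replicate 1 and day 21 replicate 1, the *mir-71* ratio had F = 3.28 and r = 0.56 (exact permutation, both with an adjusted p of 0.101). The log2 changes from day 1 were 1.09, 1.32 and 1.09, each at the smallest possible exact permutation p of 0.1.

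Both ratios were read beside those of all 82 hairpins whose strands were both tested, taking the more abundant over the less abundant strand. The median log2 change from day 1 over the 82 was 0.16 on day 7, 0.93 on day 14 and 1.20 at day 21, and it was above 0 in 47, 60 and 60 of them. By the size of the rise, *mir-246* came 2nd on day 7, 8th on day 14 and 9th at day 21. *mir-71* came 13th, 33rd and 43rd, so at day 21 it was near the middle of all hairpins.

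**Figure D3:**
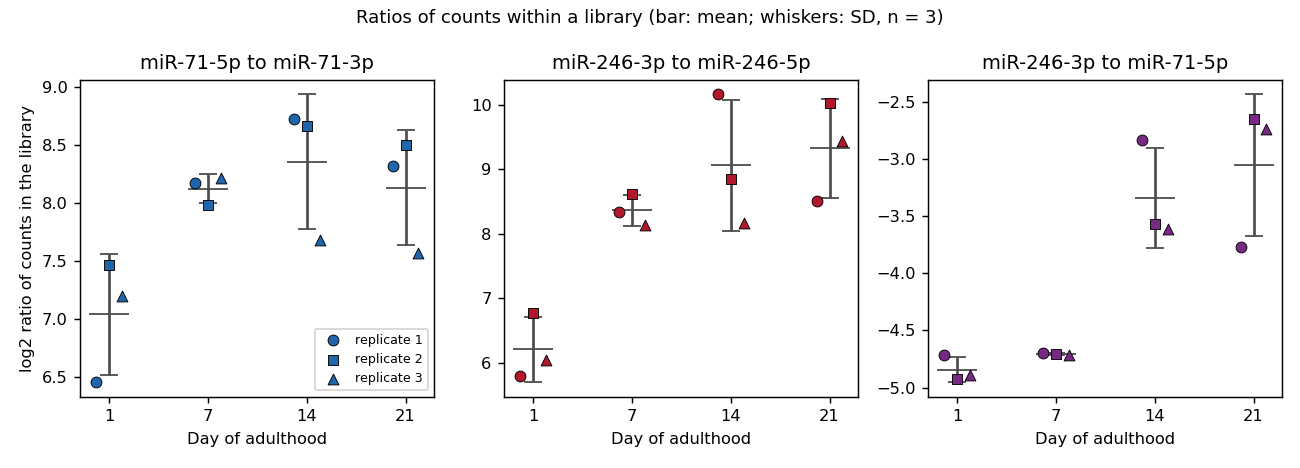
Log2 ratios of counts within each library (y axes, log2 units, each panel with its own range) by day of adulthood (x axis), for the strands of mir-71, the strands of mir-246, and miR-246-3p against miR-71-5p. Symbols are replicates, bars means and whiskers SD (n = 3); day 1 lies lowest for both strand ratios, and in the last panel days 1 and 7 (means -4.84 and -4.71) lie below days 14 and 21 (-3.34 and -3.06).

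The abundant strands of the 2 genes were also compared with each other. The log2 ratio of miR-246-3p to miR-71-5p was -4.72, -4.92 and -4.89 at day 1, -4.70, -4.71 and -4.72 on day 7, -2.83, -3.57 and -3.62 on day 14, and -3.77, -2.65 and -2.74 at day 21. The 6 libraries of days 14 and 21 all lay above the 6 of days 1 and 7. The geometric mean ratio of counts was 0.0348 at day 1, 0.0383 on day 7, 0.0987 on day 14 and 0.120 at day 21.

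The ratio of miR-246-3p to miR-71-5p differed over the 4 ages (F = 17.2, exact permutation p = 0.00364, adjusted p = 0.00655 over the 9 tests). No pooled correlation with the day is given because the libraries fell into these separate clusters. The log2 change from day 1 was 0.13 on day 7 (exact permutation p = 0.2, above every day 1 library in 2 of 3), 1.50 on day 14 and 1.79 at day 21 (p = 0.1 each, 3 of 3 above). F passed the test under all 14 alternatives run, and was 13.3 to 47.0 with any 1 library left out. Without day 14 replicate 1 and day 21 replicate 1 it was 490, with log2 changes of 1.25 on day 14 and 2.15 at day 21. Leaving these libraries out narrows the spread within both ages, so this F is favoured by the choice and is given as a description.

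Other microRNAs with a reported part in lifespan were set beside the pair, with both strands of each hairpin counted and the more abundant one named. For *lin-4*, *mir-124* and *mir-238*, whose loss was reported to shorten life as that of *mir-71* and *mir-246* does, 4 of 6 strands were tested. Against day 1, 1 was higher and 1 lower at days 7 and 14, and 2 were higher and 1 lower at day 21, with median log2 changes of 0.30, 0.24 and 0.47. Of all tested microRNAs, 21.2, 34.3 and 35.1% were higher and 18.0, 34.7 and 35.9% lower at these ages, with medians of -0.01, -0.12 and -0.06. At days 7 and 14, 1 of 4 each way was thus near the background. With only 4 strands, 2 higher at day 21 cannot be told apart from a share of 35.1%.

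Within this list lin-4-5p, a regulator of developmental timing, fell by 2.0 at day 21 (edgeR adjusted p = 6.00e-06), miR-238-3p rose by 0.86 (adjusted p = 0.00127) and the neuronal miR-124-3p rose by 1.03 (adjusted p = 0.0267). miR-246-3p, at 1.34, thus had the direction of miR-238-3p and miR-124-3p at that age. The mean level of miR-124-3p was low, 6.62 CPM at day 1 and 13.6 CPM at day 21. Its differences from day 1 did not pass the test at days 7 and 14 (edgeR adjusted p = 0.827 and 0.158). The difference of miR-71-5p, at -0.48, did not pass the test.

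For *mir-34*, *mir-80*, *mir-83*, *mir-228*, *mir-239a* and *mir-239b*, whose loss was reported to lengthen life, 11 of 12 strands were tested. Against day 1, 6 were higher and 2 lower at each of days 7, 14 and 21, with median log2 changes of 1.16, 1.28 and 2.22. Beside the shares of all tested microRNAs given for the first list, 2 of 11 lower was near the background at day 7 and under it at days 14 and 21, and 6 of 11 higher was above it. The list was set with earlier results of these data known, and the authors found *mir-83* to increase with age in this sequencing. Strands of the same hairpin are also not independent, so these counts are a description. At day 21 miR-34-5p had risen by 4.21, miR-239b-5p by 4.38, miR-239a-3p by 2.56 and miR-83-3p by 2.22 (edgeR adjusted p from 4.08e-08 to 1.71e-04), beside 1.34 for miR-246-3p; differences between microRNAs were not tested. miR-80-3p (-0.55, edgeR adjusted p = 0.0692) and miR-228-5p (0.59, adjusted p = 0.0921) did not pass the test at that age.

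**Figure D4:**
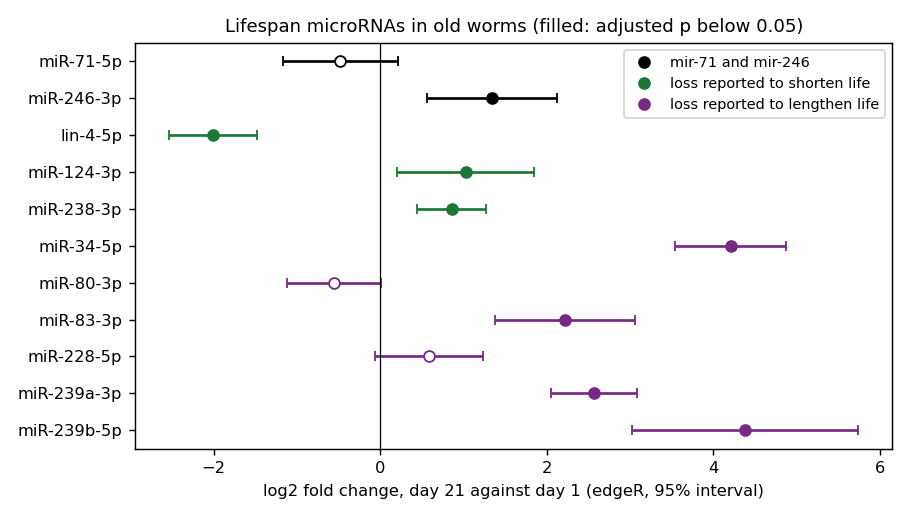
Log2 fold change at day 21 against day 1 (x axis, edgeR, with 95% intervals) of the abundant strands of mir-71 and mir-246 (black) and of microRNAs whose loss was reported to shorten (green) or lengthen life (purple); filled points have an adjusted p below 0.05. miR-246-3p lies at 1.34, miR-71-5p at -0.48 with an interval that holds 0, and miR-34-5p and miR-239b-5p lie farthest right (4.21 and 4.38). The mean level of miR-239b-5p at day 1 was 1.69 CPM.

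The microRNAs with the pattern most like each abundant strand were found by Pearson's r of the log2 level over the 12 libraries, as a description, since the points share libraries and scaling. For miR-71-5p they were miR-58-3p (r = 0.803), miR-253-3p (0.792) and miR-90-5p (0.763). Like miR-71-5p, miR-58-3p and miR-90-5p had their highest mean level at day 7, 41783 ± 7452 and 139 ± 15.0 CPM (SD, n = 3). The mean of miR-253-3p was highest at day 1 (796 ± 566 CPM, from 396 to 1443), an age at which miR-71-5p was not highest in mean.

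For miR-246-3p the closest were miR-2209a-3p (r = 0.951), miR-4813-3p (0.936) and miR-84-3p (0.933), a strand of a *let-7* family hairpin. The level of miR-2209a-3p was 12.6 ± 3.77 CPM at day 1, 23.5 ± 5.08 on day 7, 46.5 ± 19.2 on day 14 and 46.4 ± 17 at day 21 (SD, n = 3). The log2 differences of the 3 at day 14 against day 1 were 1.90, 1.30 and 1.37; these follow from the choice by likeness and are given with no test. Over the same libraries miR-246-3p had r = 0.033 with miR-71-5p, -0.804 with miR-71-3p and -0.705 with miR-246-5p, and miR-71-5p had r = 0.453 with miR-71-3p.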

How the data were processed

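Small RNA libraries from 12 samples of whole N2 worms (3 at each of 4 ages, grouped by the labels) were sequenced with Illumina technology. The authors aligned reads to the WBcel215.67 genome with Tophat, mapped them to known microRNAs with miRDeep and compared ages with DESeq; tool versions are not given in the sources used here. The deposited table holds raw counts per mature microRNA, which were used, and the authors' CPM, the count over the library total to within 0.005. The authors' own comparison columns (fold changes and p-values, deposited) and group means were not used. The table had 375 lines naming a microRNA and 1 naming none; 7 microRNAs on more than 1 line were taken from the line with the largest total, and each of the 4 studied strands had 1 line. Coordinates are those of WBcel235 (Ensembl release 115), found by gene name.

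Counts were filtered with filterByExpr by age (minimum count 10), which kept 245 of 368 microRNAs and at least 99.997% of each library, and scaled by TMM. The quasi-likelihood test of edgeR 4.0.16 (R 4.3.3) was fitted with age as the only term. Within-library ratios (pseudocount 0.5) were tested over all 369600 assignments of 12 libraries to ages (two-sided). Counts of any 2 replicates of an age differed beyond sampling noise (lowest chi-square 191 per degree of freedom), so no library was a copy of another of its age. Libraries of different ages were not compared in this way. Scripts were tested on simulated data. The microRNAs to be named were set by rule: all strands of both hairpins, the 3 most alike by r, and the abundant strand of each listed lifespan microRNA. The studied genes and the lists were chosen with earlier results of these data known. Alternatives were RLE size factors, total counts, no filter, a minimum of 10 counts in all libraries, DESeq2 1.42.0, only the 2 ages compared, a replicate block and each library left out. Day 14 replicate 1 and day 21 replicate 1 were also left out together, a choice made after seeing where they lay among the libraries. For ratios a pseudocount of 1 was used as well.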

Additional observations from a re-analysis of the deposited data

How the results depend on the processing

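Of 47 results on the studied strands, 31 kept their direction and their side of the threshold under every alternative. Changes of a ratio from day 1 had no adjusted p and were counted as kept when they moved by less than an SD. The 31 also include differences called in no setting, such as miR-71-5p at day 7 against day 1. The causes of the other changes were not tested. With total counts in place of TMM, the median log2 change over all tested microRNAs went from -0.12 to -0.41 at day 14 against day 1 (0.01 to -0.21 at day 14 against day 7), and the scaling gave miR-71-5p -0.60 at day 21 against day 1 (edgeR adjusted p = 0.0449), -0.85 at day 14 against day 7 (adjusted p = 0.0167), a trend of -0.043 per day (adjusted p = 0.0300) and adjusted p = 0.00756 over the 4 ages. miR-71-5p over the 4 ages also passed with no filter (edgeR adjusted p = 0.0417), a replicate block (adjusted p = 0.0380), and day 14 replicate 1 and day 21 replicate 1 both left out (adjusted p = 0.0243); the latter gave -0.80 at day 21 against day 1. miR-71-3p at day 7 against day 1 missed the threshold with RLE (-0.57, edgeR adjusted p = 0.0558), total counts (-0.67, adjusted p = 0.0715), no filter (-0.61, adjusted p = 0.0709), 10 counts in every library (-0.62, adjusted p = 0.0563) and the replicate block (-0.57, adjusted p = 0.0708). miR-246-3p passed in fits of only the 2 ages at day 14 (0.93) and day 21 (0.68) against day 7, and at day 21 without both libraries (0.83). Uncalled differences changed sign for miR-246-3p at day 21 against day 14 (0.055 by total counts, 0.31 without both libraries) and miR-246-5p at day 14 against day 7 (-0.13 by total counts, -0.051 with no filter, -0.0057 with 10 counts in every library). Without both libraries, miR-246-5p at day 21 against day 14 was -0.95, a contrast that leaving these libraries out widens by construction. The strand ratio of *mir-71* then had r = 0.56 and F = 3.28 (exact permutation, adjusted p = 0.101 for each). Leaving out both libraries was chosen after seeing the data.

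With 1 library left out in turn, miR-71-5p ranged from 0.15 to 0.63 at day 7 against day 1, -0.45 to 0.030 at day 14 against day 1, -0.80 to -0.30 at day 21 against day 1 and -1.19 to -0.67 at day 21 against day 7; over the 4 ages its edgeR adjusted p ranged from 0.0176 to 0.129, and its trend from -0.049 to -0.024 per day. miR-71-3p ranged from -0.81 to -0.58 at day 7 against day 1, -1.04 to -0.67 at day 14 against day 7 and -0.35 to 0.033 at day 21 against day 14. miR-246-3p ranged from 0.51 to 1.06 at day 14 against day 7, 0.35 to 0.89 at day 21 against day 7 and -0.48 to 0.21 at day 21 against day 14, and miR-246-5p from -0.062 to 0.33 at day 14 against day 7. For the strand ratio of *mir-71*, r ranged from 0.488 to 0.736 and F from 2.56 to 8.25. Deviations of libraries with the same replicate number had r from -0.654 to 0.415, and those with other numbers from -0.547 to 0.487. Of the 12 libraries, 3 correlated best with one of their own number. With 3 libraries an age, these values cannot decide whether a replicate number marks worms followed across the ages. With a replicate block the calls at day 21 against day 1 went from 86 to 85 higher and from 88 to 86 lower. Requiring 10 counts in every library took the higher calls from 52 to 33 at day 7 and from 84 to 50 at day 14 against day 1, and the lower calls at day 21 against day 7 from 61 to 39, with fewer microRNAs tested. Lower calls went from 44 to 29 at day 7 against day 1 without day 7 replicate 1, from 42 to 26 at day 14 against day 7 without day 14 replicate 1, and from 61 to 39 at day 21 against day 7 without day 21 replicate 3. Few counts of miR-246-5p (48 in 1 library) and 3 libraries an age limit the precision.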
